A study of Mus musculus with 8 samples.

Results

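The replication-dependent histone genes are the clustered genes for the core histones H2A, H2B, H3 and H4 and for the linker histone H1. They were taken as every row of the RNA-Seq expression table whose symbol begins with Hist1h, Hist2h, Hist3h or Hist4h, which gave 68 of 23361 rows. The set held 6 genes of H1, 18 of H2A, 19 of H2B, 12 of H3 and 13 of H4. Of these, 54 lie in the Hist1 cluster on chromosome 13, 10 in the Hist2 cluster on chromosome 3, 3 in the Hist3 cluster on chromosome 11 and 1 (Hist4h4) on chromosome 6. The study compared 5 cancers of the gastric squamous-columnar junction (SCJ), the border between the squamous forestomach and the glandular stomach of the mouse, with the SCJ of 3 control stomachs. The cancers, labelled Trp53-/-Rb1-/-, arose in tamoxifen-treated mice with an Lgr5-eGFP-IRES-CreERT2 allele, Trp53 loxP/loxP, Rb1 loxP/loxP and the Ai9 reporter, in which Cre acts only in cells that express Lgr5. The controls were wild type SCJ from age-paired mice, so genotype, Cre and tumour cannot be told apart in this comparison. The study's methods mention control mice that were given tamoxifen, without saying whether these controls were among them. Tumours were cut out along the tdTomato border and every sample was minced whole, so stroma and blood cells were present in both groups, and fewer cells of a type cannot be told apart from less RNA per cell.

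Replication-dependent histone mRNAs are made in S phase, when new DNA has to be packed into nucleosomes. Unlike other mRNAs of animal cells they end in a short stem-loop in place of a poly(A) tail. The stem-loop binding protein Slbp and the U7 small nuclear ribonucleoprotein direct the cut just after it, and the mRNAs are destroyed when DNA synthesis stops. Replacement histones such as H3f3a, H2afz and H1f0 are made outside S phase from ordinary polyadenylated mRNAs. Some clustered genes also have a polyadenylation signal farther downstream, and transcripts that run past the stem-loop to it carry a poly(A) tail. Per the labels, the libraries were made with a directional NEBNext kit after isolation of polyadenylated RNA, so what is given here would be mainly the polyadenylated part of the histone transcripts and not their whole amount. The study's methods name a TruSeq library instead and no selection step, and this difference between the sources was not resolved.

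The sequences behind this distinction are shown first. The stem-loop was searched on the transcript strand as a run of 16 bases, GGNNN then TTNTNA then NNNCC, with all 6 stem positions paired, in the transcripts of GENCODE M21 (GRCm38, the assembly that UCSC calls mm10). It was present in 46 of the 68 histone genes and in 33 of 55273 other genes of that annotation (0.0597%), over transcripts of all lengths. A stem-loop beyond the end of an annotated transcript could not be found, so its absence here is not evidence that a gene lacks it. In the 34 such genes of H1, H2A, H2B and H3 the first stem strand read GGCTCT, whereas in the 12 of H4 it read GGCCCT or GGTCCT. The most frequent word, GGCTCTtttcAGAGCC, was found in 26 genes, and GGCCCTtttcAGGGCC in 7 genes of H4. The following 30 bases, 5′ to 3′ as DNA, surround the stem-loop of the genes whose levels are described in most detail, with the stem in capitals.
Hist1h1c stem-loop: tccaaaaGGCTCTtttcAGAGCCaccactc
Hist2h3c1 stem-loop: ccacaaaGGCTCTtttcAGAGCCaccacag
Hist3h2a stem-loop: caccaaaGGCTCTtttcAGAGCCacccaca
Hist3h2ba stem-loop: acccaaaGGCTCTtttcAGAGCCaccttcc
Hist2h2ac stem-loop: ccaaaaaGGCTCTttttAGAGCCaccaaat
Hist1h4h stem-loop: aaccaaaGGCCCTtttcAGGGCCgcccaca
Hist2h4 stem-loop: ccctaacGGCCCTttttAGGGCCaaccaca
These stretches lie at chr13:23739505-23739534 (Hist1h1c), chr3:96247320-96247349 (Hist2h3c1), chr11:58955165-58955194 (Hist3h2a), chr11:58949342-58949371 (Hist3h2ba) and chr13:23531451-23531480 (Hist1h4h) on the plus strand, and at chr3:96220411-96220440 (Hist2h2ac) and chr3:96262932-96262961 (Hist2h4) on the minus strand.

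The second set of sequences surrounds the polyadenylation hexamer, AATAAA or ATTAAA, searched in the last 50 bases of the same transcripts on the transcript strand. At least 1 annotated transcript ended with such a hexamer for 9 of the 18 histone genes that reached an FPKM (fragments per kilobase of transcript, scaled to the mapped fragments of the library) of 1 in 3 or more libraries, for 8 of the other 50, and for 44.0% of the other genes in the annotation. The hexamer is in capitals.
Hist1h1c 3′ end: atgcttctAATAAAaagcgtttagttttca
Hist1h2bc 3′ end: gtatatatAATAAAtgtcatgtaaagcaaa
Hist2h2be 3′ end: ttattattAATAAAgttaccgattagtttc
Hist2h3c1 3′ end: ttaatcccAATAAAaatttaacacactgct
Hist3h2ba 3′ end: atggtattAATAAAtttggttcaattttgg
These are chr13:23740334-23740363, chr13:23692454-23692483, chr3:96223709-96223738, chr3:96248479-96248508 and chr11:58949499-58949528 on the plus strand. The hexamer of Hist1h2bc stands 13 bases before the end of its deposited locus and not at the end of the longer GENCODE transcript. The GENCODE transcripts of Hist1h2bc, which has 2 exons, and of Hist2h2be held no stem-loop of this pattern. Both kinds of match are descriptions of the annotated sequence and not measurements of 3′ ends.

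Several properties of the libraries touch every value below. The deposited values are FPKM rounded to whole numbers, so low members moved in steps of 1. A listed 0 need not mean that no RNA was present: the chief cell gene Pgc was at 28832 FPKM in control 1 and listed at 0 in controls 2 and 3, where the gland gene Gif was at 4982 and 3374. Within the controls, 2 rows of the table were listed at 0 in at least 1 library and at 100 FPKM or more in another. Read totals were not given in the table, so the depth is unknown and no counting interval was computed. The FPKM of all rows summed to 403569 to 573858 in the cancers and to 887141 to 992550 in the controls. Rescaling each library to the same sum (the TPM scale) moved the median log2 fold change of the 14357 genes tested from -0.04 to 0.81, so a direction given here holds for the deposited FPKM, and the TPM value stands beside it where it differs. The sum of 10 gastric gland markers was 694 to 78716 FPKM in the cancers and 158537 to 240752 in the controls, and that of 8 squamous markers was 3 to 2063 against 4228 to 7318. Cancer 1 stood apart by lymphocyte markers, which summed to 221 FPKM there and to 3 to 13 in the other 7 libraries, with Cd79a at 68 and Ms4a1 at 26. Cancer 5 stood apart by Alb, at 266 FPKM against 1 to 58 elsewhere. Among the cell type lists, 1 of 10 gastric gland and 3 of 8 squamous markers passed the test described below, all lower in the cancers. None of the 6 lymphocyte, 5 smooth muscle, 1 hepatocyte and 1 erythroid markers tested did (limma), and at an unadjusted p under 0.05 only Alb was past it. With TPM the hepatocyte and the erythroid marker were higher in the cancers and no lymphocyte or smooth muscle marker passed. On that scale 1 gastric gland and 2 squamous markers were lower. The part that any of these had in the histone values was not tested. Of the deleted genes, Rb1 was at 4, 4, 5, 6 and 4 FPKM in cancers 1 to 5 against 9, 9 and 10 in controls 1 to 3 (log2 fold change -0.90, and -0.05 on the TPM scale), while Trp53 (12 to 30 against 16 to 19) overlapped between the groups. The methods count 3 control stomachs and 5 tumours, and nothing in the sources used here states that each tumour came from its own mouse, so the p-values measure the spread between these samples.

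Most of the clustered histone genes were listed at 0 or at 1 FPKM in both tissues, which is not evidence that their RNA was low. In all 8 libraries 36 of the 68 members (52.9%) were listed at 0, compared with 33.0% of the other rows of the table, which have much longer loci. On loci of at most 1000 bases the order was the opposite, with 56.6% of the members and 95.6% of the other mRNA rows at 0 throughout, although their median lengths also differed (405 and 936 bases). The other rows were not matched to the members by kind of gene, so this order does not show how well short histone rows were detected. Of the remaining 32, 18 never exceeded 1 FPKM, 12 reached 2 to 9 and 2, Hist1h1c and Hist1h2bc, reached at least 10. There were 16 members above 0 in both groups, 13 in cancers alone and 3 (Hist1h3e, Hist1h4a and Hist1h4b) in controls alone. With 5 cancers and 3 controls, a value above 0 had more chances to appear in cancers alone. This split was not computed over all rows, so it is no result about the members. Of the 13, 11 were above 0 in cancer 1, the library with the lymphocyte markers, and 5 in that library only, so that 8 remained without it, and 10 of the 13 never exceeded 1 FPKM. The number of members at 1 FPKM or more was 27, 16, 21, 13 and 10 in cancers 1 to 5 and 10, 13 and 15 in controls 1 to 3. The groups overlapped in this number, and cancer 1 had the highest count. H2A and H2B were the families most often at 0, with 13 of 18 and 13 of 19 members at 0 throughout, and H4 the least often, with 2 of 13.

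**Figure D1:**
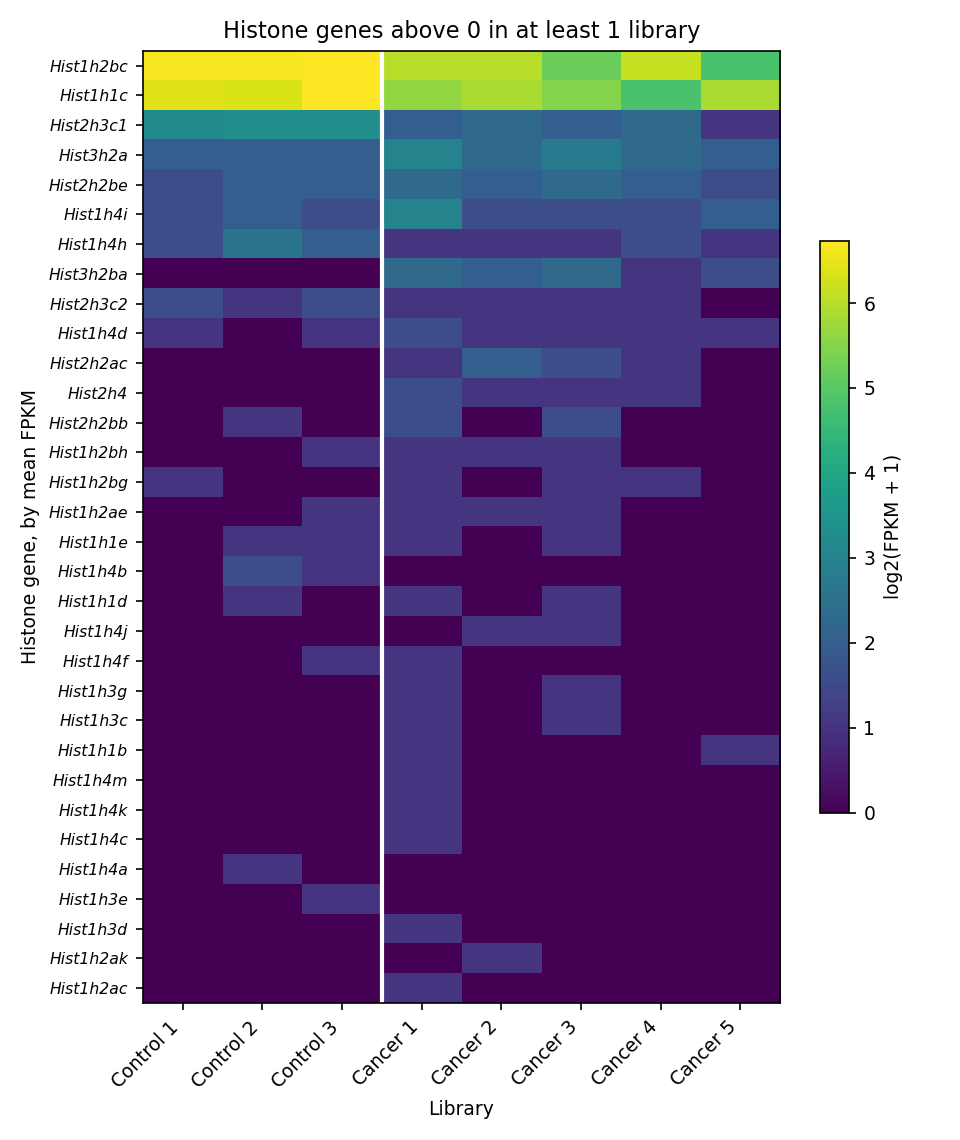
Heat map of log2(FPKM + 1) for the 32 histone genes above 0 in at least 1 library, with libraries in columns (3 controls, then 5 cancers) and genes in rows ordered by mean FPKM. Hist1h2bc and Hist1h1c are the bright rows at the top, Hist3h2ba is at 0 in the 3 controls, and cancer 1 has the most genes above 0, 27.

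Of the 18 members that reached 1 FPKM in 3 or more libraries, 9 had an unshared deposited locus that runs 50 bases or more past the stem-loop. In 4 the locus stopped before the end of the stem-loop, in 1 it passed by less, and in 3 the transcript model held no stem-loop. The remaining member, Hist1h1e, shared its locus with another row. Leaving aside 8 rows with shared coordinates, the locus passed the stem-loop by 50 bases or more in 14 genes, of which 9 reached 1 FPKM in 3 or more libraries and 4 were at 0 throughout. It stopped before the end of the stem-loop in 18 genes, of which 4 reached that level and 7 were at 0. It passed the stem-loop by fewer than 50 bases in 6 genes, of which only Hist1h4h reached it. In 22 genes the annotated transcript held no such stem-loop, and 16 of them were at 0 throughout, while Hist1h2bc, Hist2h2be and Hist2h2bb reached the level. Several of these models were short, with 381 bases in Hist1h2bl, Hist1h2bn and Hist2h2bb and 312 in Hist1h4k. The search ended with the model, so this class may hold genes whose stem-loop lies past it. The locus of Hist1h1c went on for 840 bases after the stem-loop, that of Hist2h3c1 for 1167, that of Hist3h2a for 1487 and that of Hist3h2ba for 166. The loci of Hist2h2ac and Hist2h4, in contrast, ended 37 and 31 bases before the end of the stem-loop. These shares are descriptions over genes of 4 clusters that share sequence, without a test. FPKM divide by the length of the gene model, which differs between the classes. On loci longer than 1000 bases 8 of 15 members (53.3%) reached the level, and on shorter loci 10 of 53 (18.9%). Of other short mRNA rows, which were not matched to the members by length or kind of gene, 3.39% did.

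**Figure D2:**
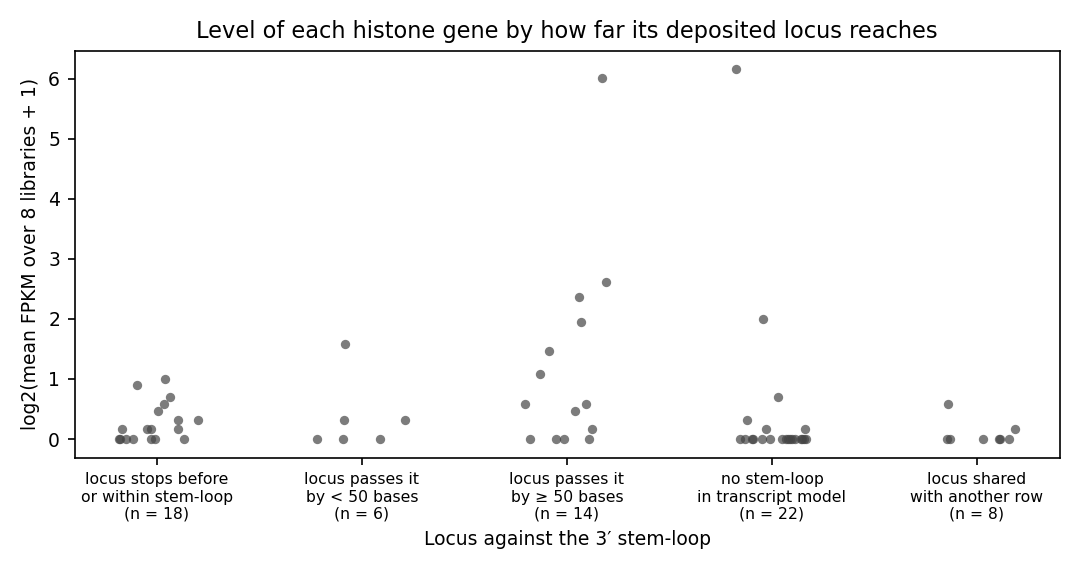
Mean FPKM over the 8 libraries, as log2(mean FPKM + 1), of each of the 68 histone genes (1 point per gene, spread sideways at random) by where the deposited locus ends against the stem-loop. The 2 points at the top are Hist1h1c, whose locus passes the stem-loop by 840 bases, and Hist1h2bc, whose transcript model holds no stem-loop.

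The values of several rows cannot be assigned to 1 gene with certainty. In 33 of the 68 genes more than 50% of the 50-base words of the transcript also occurred in a transcript of another gene, and how reads with several matches were counted is not given in the sources used here. The other genes include GENCODE models without a row in the deposited table. All words of the Hist2h3c1 transcript were shared with the read-through model Gm20634, which has no row in the deposited table, and 34.7% with other histone genes. The shared part was 8.54% for Hist1h1c, 30.1% for Hist1h2bc (chiefly with Hist1h2bg), 22.1% for Hist3h2ba (with the pseudogene Hist3h2bb-ps), 31.5% for Hist3h2a (with Trim17, which was listed at 0 in all libraries) and 45.8% for Hist1h4h. No word of Hist2h2be was shared. In addition, 8 rows had the same coordinates as another member, as pairs. Hist1h2ao with Hist1h2ap and Hist2h2aa1 with Hist2h2aa2 were at 0 in all libraries, Hist1h4m was at 1 FPKM in cancer 1 and its partner Hist1h4n at 0, and Hist1h1e shared its coordinates with Hist1h2be, which was at 0.

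To ask which members differed between cancer and normal SCJ, log2(FPKM + 1) of every gene with an FPKM of at least 1 in 3 or more libraries was fitted with limma, and p-values were adjusted over all genes tested (Benjamini-Hochberg, threshold 0.05). Among the 68 members 18 entered the fit and the other 50 were too low. Higher in the cancers was 1 member, Hist3h2ba, against 16.2% of all genes tested, and 4 were lower (Hist1h1c, Hist1h2bc, Hist1h4h and Hist2h3c1) against 18.3%. Hist3h2ba, Hist2h2ac and Hist2h4 were listed at 0 in every control and entered the fit through the cancers alone, so their difference follows in part from the filter and their p-values are not independent support. In both directions together this was 5 of 18 members beside 34.5% of all genes, so the share called among the histone genes was not above the background. The median log2 fold change was 0.25 over the 18 members, the 3 tested through the cancers alone included, and -0.04 over all genes. That order turned on the TPM scale (0.66 and 0.81), and with quantile normalization both medians were near 0 (0.0016 and 0.0065). Every cancer lay above every control in 1 member (Hist3h2ba, against 14.4% of all genes) and below every control in 3 (Hist1h1c, Hist1h2bc and Hist2h3c1, against 19.8%). With libraries rescaled to TPM, no member was lower in limma, adjusted or not, and 6 were higher (Hist1h4d, Hist2h2ac, Hist2h2be, Hist2h4, Hist3h2a and Hist3h2ba), while 7176 of all genes were then higher and 528 lower. Without control 2 or without control 3, no member was called lower by limma (5 and 4 were at an unadjusted p under 0.05), and without cancer 3 or control 1 there were 1 and 2.

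Among the linker histones, which bind the DNA between nucleosomes, Hist1h1c was the only abundant member. Hist1h1c, which encodes the H1.2 subtype (chr13:23738807-23740367, 1 exon), was at 49, 58, 44, 27 and 58 FPKM in cancers 1 to 5 and at 85, 81 and 104 in controls 1 to 3. Every cancer lay below every control, with cancer 4 the lowest. The mean was 47.2 ± 12.8 (SD, n = 5) against 90.0 ± 12.3 (n = 3), a log2 fold change of -0.96 ± 0.26 (SE, limma adjusted p = 0.0264), and the exact two-sided permutation test over the 8 libraries gave p = 0.0179, the smallest it can give. After rescaling to TPM the log2 fold change was 0.0042 (limma adjusted p = 0.992), which was 0.81 below the median of all genes, and after quantile normalization it was -0.48 (limma adjusted p = 0.199). The call was also lost without cancer 3 (limma adjusted p = 0.0594) and without control 1, 2 or 3 (limma adjusted p = 0.0745, 0.0646 and 0.0958). The other H1 genes were near 0. Hist1h1d was at 1 FPKM in cancers 1 and 3 and control 2, and Hist1h1e in cancers 1 and 3 and controls 2 and 3, and neither passed the test (limma adjusted p = 0.901 and 0.594). Hist1h1b was at 1 FPKM in cancers 1 and 5 and at 0 elsewhere, and Hist1h1a and the testis-specific Hist1h1t were at 0 in all libraries. The replacement linker histone H1f0, by comparison, was at 77 to 155 FPKM in the cancers and 109 to 126 in the controls and did not pass the test (log2 fold change -0.07, limma adjusted p = 0.839), whereas on the TPM scale it was higher (0.90, limma adjusted p = 0.0189).

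H2B, a partner of H2A in the nucleosome core, held both the most abundant member and the one that was higher in the cancers. Hist1h2bc (chr13:23684199-23692480) was at 63, 63, 36, 69 and 27 FPKM in cancers 1 to 5 and at 100, 100 and 105 in controls 1 to 3. Every cancer was below every control, and the cancers spread more widely than the controls. Their means were 51.6 ± 18.8 (SD, n = 5) for cancer and 102 ± 2.89 (n = 3) for control, with a log2 fold change of -1.05 ± 0.32 (limma adjusted p = 0.0397) and p = 0.0536 in the exact permutation test. The TPM value was -0.09 (limma adjusted p = 0.797), 0.90 below the median of all genes, and quantile normalization gave -0.60 (limma adjusted p = 0.199). Here, too, the call was lost without cancer 3 (limma adjusted p = 0.0853) or any 1 control (limma adjusted p = 0.103 to 0.111).

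Hist3h2ba, an H2B gene of the small Hist3 cluster (chr11:58948911-58949530), was at 4, 3, 4, 1 and 2 FPKM in cancers 1 to 5 and listed at 0 in all 3 controls. All 5 cancers were thus above the controls, cancers 1 and 3 the most and cancer 4 the least. The limma adjusted p was 0.00532, but the gene was tested only because of its cancer values, cancer 4 differed from the controls by a single step of 1 FPKM, and a listed 0 can be a failed estimate, so the values are given as a description and with no fold. At 1 to 4 FPKM it was a minor H2B gene, 1.45 to 11.1% of Hist1h2bc in the same cancer. Hist2h2be, whose transcript model holds no stem-loop, was at 4, 3, 4, 3 and 2 FPKM in cancers 1 to 5 against 2, 3 and 3 in controls 1 to 3, which overlapped (log2 fold change 0.18, limma adjusted p = 0.516). On TPM it was higher in the cancers (limma adjusted p = 0.0278). Hist2h2bb was at 2 FPKM in cancers 1 and 3 and at 1 in control 2, and Hist1h2bg and Hist1h2bh did not exceed 1, and none of the 3 passed the test.

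**Figure D3:**
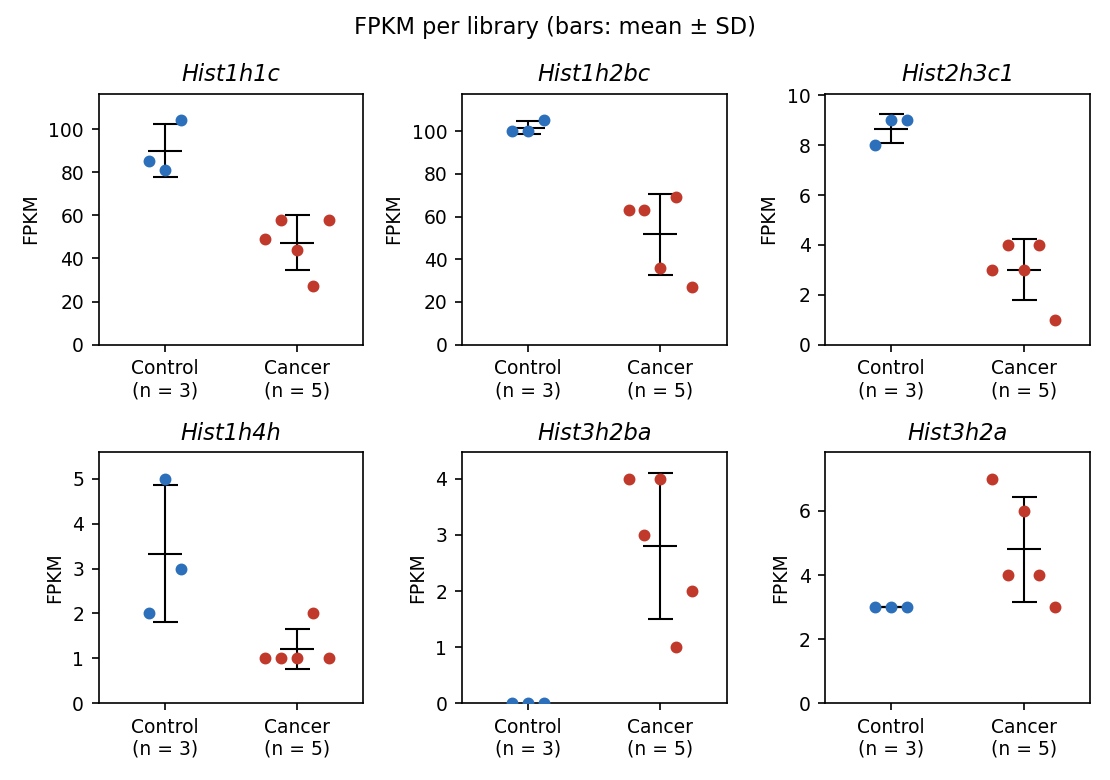
FPKM in each control (blue, n = 3) and cancer (red, n = 5) library for 6 histone genes, with bars at the mean ± SD except where a group is listed at 0. Hist1h1c, Hist1h2bc and Hist2h3c1 do not overlap between groups and are lower in the cancers, Hist3h2ba does not overlap and is higher, and Hist1h4h and Hist3h2a share values between groups.

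The H2A genes were low, and none of the 3 tested passed in limma, with 1 (Hist2h2ac) at an unadjusted p under 0.05. Hist3h2a lies in the same cluster as Hist3h2ba (chr11:58954685-58956674) and was the most abundant of them, at 7, 4, 6, 4 and 3 FPKM in cancers 1 to 5 and at 3 in each control. No cancer was below the controls, and cancer 5 equalled them. The log2 fold change was 0.49 ± 0.24 (limma adjusted p = 0.142, exact permutation p = 0.107), and it passed only with TPM (limma adjusted p = 0.0121) and with array weights (limma adjusted p = 0.0221). Together the 3 rows of the Hist3 cluster summed to 11, 7, 10, 5 and 5 FPKM in the cancers and to 3 in every control. The groups were apart in this sum only through Hist3h2ba. Hist2h2ac (chr3:96220455-96220844) was at 1, 3, 2, 1 and 0 FPKM in the cancers and at 0 in all controls, and missed the threshold (limma adjusted p = 0.0663). Like Hist3h2ba, it entered the fit through the cancers alone. Hist1h2ae was at 1 FPKM in cancers 1, 2 and 3 and in control 3, and the other H2A genes were at 0 in at least 7 of the 8 libraries.

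Only Hist2h3c1 and Hist2h3c2 of the 12 genes for the core histone H3 reached the test. Hist2h3c1 (chr3:96246685-96248509) was at 3, 4, 3, 4 and 1 FPKM in cancers 1 to 5 and at 8, 9 and 9 in controls 1 to 3. All cancers were below all controls, with cancer 5 the lowest. The log2 fold change was -1.34 ± 0.31 (limma adjusted p = 0.0148, exact permutation p = 0.0179). It was -1.43 with quantile normalization (limma adjusted p = 0.0243) and -0.59 with TPM (limma adjusted p = 0.170), which was 1.40 below the median of all genes. The call was lost without control 2 (limma adjusted p = 0.0541) or control 3 (limma adjusted p = 0.0529). Hist2h3c2 was at 1, 1, 1, 1 and 0 FPKM in cancers 1 to 5 against 2, 1 and 2 in controls 1 to 3, with an overlap at 1 (limma adjusted p = 0.142). It passed with quantile normalization alone (limma adjusted p = 0.0440). Of the H3 genes of the Hist1 cluster, none exceeded 1 FPKM.

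H4 genes were the most often detected, yet 11 of the 13 stayed at or below 2 FPKM in every library. Hist1h4h (chr13:23531044-23531521) was at 1, 1, 1, 2 and 1 FPKM in cancers 1 to 5 and at 2, 5 and 3 in controls 1 to 3. The groups met at 2, shared by cancer 4 and control 1. The log2 fold change was -0.94 ± 0.26 (limma adjusted p = 0.0265, exact permutation p = 0.0357) and -0.35 with TPM (limma adjusted p = 0.363). The call was lost without cancer 1 (limma adjusted p = 0.05005), cancer 3 (0.0585), control 2 (0.0910) or control 3 (0.0721). Hist2h4 (chr3:96262970-96263317) was at 2, 1, 1, 1 and 0 FPKM in the cancers and at 0 in the controls, short of the threshold (limma adjusted p = 0.0563), and it, too, entered the fit through the cancers alone. Hist1h4i was at 7 FPKM in cancer 1 and at 2 to 3 in every other library (log2 fold change 0.23, limma adjusted p = 0.627). Without cancer 1 its log2 fold change was -0.03. Hist1h4d was at 2, 1, 1, 1 and 1 FPKM against 1, 0 and 1 (limma adjusted p = 0.225), and Hist1h4b was at 2 FPKM in control 2, at 1 in control 3 and at 0 in all cancers.

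Summed over all 68 members, the FPKM were 160, 148, 115, 117 and 99 in cancers 1 to 5 and 206, 211 and 238 in controls 1 to 3. All cancers were lower. Cancer libraries averaged 128 ± 25.3 (SD, n = 5) and control libraries 218 ± 17.2 (n = 3), a ratio of 0.585, which became a log2 ratio of 0.22 on the TPM scale. As a share of the FPKM of all rows, the sum was 0.0396% in cancer 1 and 0.0209 to 0.0262% for cancers 2 to 5. Controls had 0.0216 to 0.0240%, and the groups overlapped. Hist1h1c and Hist1h2bc made up 69.6 to 85.9% of the sum in the cancers and 85.8 to 89.8% in the controls. Without these 2 genes the sum was 48, 27, 35, 21 and 14 FPKM in cancers 1 to 5 against 21, 30 and 29 in controls 1 to 3, which overlapped (ratio of means 1.09). By family, the cancer and control means were 48.4 and 91.0 FPKM for H1, 59.6 and 105 for H2B, 4.8 and 10.7 for H3, 7.8 and 8 for H4, and 7.2 and 3.33 for H2A. On the TPM scale the direction turned for 3 families, with means of 103 ± 33.7 (SD, n = 5) for cancer and 96.1 ± 8.71 (n = 3) for control in H1, 124 ± 42.1 and 112 ± 4.98 in H2B, and 17.1 ± 12.6 and 8.56 ± 3.61 in H4, all with overlap, while H3 was at 10.2 ± 5.71 and 11.3 ± 0.814. H2A was at 6.73 to 24.8 for cancer and 3.14 to 4.03 for control, without overlap on this scale, whereas on FPKM it overlapped (3 to 10 against 3 to 4). H4 stood at 16 FPKM in cancer 1 and at 5 to 6 in cancers 2 to 5.

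Ratios within a library do not depend on its scaling, and several were formed after the values had been seen, with no test. The summed members were 8.58 ± 1.48% (SD, n = 5) of the summed replacement histones in the cancers, with a range of 7.04 to 10.7%, and 16.6 ± 1.81% (n = 3) in the controls, with a range of 14.5 to 17.7%. Relative to 21 S phase genes the members were at 25.6 ± 3.71% for cancer against 87.8 ± 21.0% for control, again without overlap. Hist1h1c over the replacement linker histone H1f0 was 0.404 ± 0.0796 for cancer against 0.748 ± 0.0755 for control, and Hist2h3c1 over the replacement H3 gene H3f3b was 1.13 ± 0.516% and 2.86 ± 0.511%, neither with overlap. Hist1h1c over Hist1h2bc was 0.391 to 2.15 in the cancers and 0.810 to 0.990 in the controls, so that these 2 genes did not keep 1 ratio among the cancers. Without both genes, the other 66 members were at 1.92 ± 0.821% of the replacement histones for cancer against 2.04 ± 0.528% for control, with overlap. Relative to the S phase genes they were at 5.51 ± 1.45% against 10.8 ± 3.40%, and only cancer 1 (7.72%) and control 1 (6.98%) overlapped. The denominators differed too. The S phase genes summed to 372 to 622 FPKM in cancer libraries against 216 to 301 in control libraries, without overlap, and the replacement histones to 1346 to 1634 against 1190 to 1423. These sums are on FPKM. On the TPM scale the median log2 fold change was 1.85 for the S phase genes and 1.40 for the replacement histones, beside 0.81 over all genes. Both medians had the same sign on FPKM (0.87 and 0.43).

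**Figure D4:**
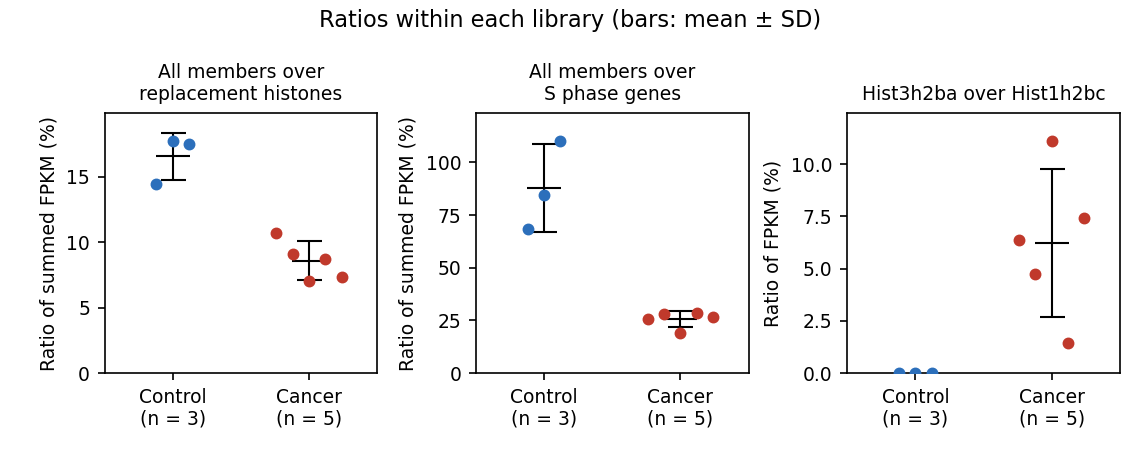
Ratios within each library, in percent, for controls (blue, n = 3) and cancers (red, n = 5), with bars at the mean ± SD except where all values are 0: all 68 histone genes over 11 replacement histones, all over 21 S phase genes, and Hist3h2ba over Hist1h2bc. The first 2 ratios are lower in every cancer than in any control, and the third is 0 in the controls and 1.45 to 11.1% in the cancers.

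Genes that act around the histone genes were described from lists of known function. The counts below stand against 16.2% of all genes higher and 18.3% lower on FPKM (median log2 fold change -0.04), and against 7176 of the 14357 genes higher and 528 (3.68%) lower on the TPM scale (median 0.81). Of 21 S phase genes 14 were higher in the cancers and none lower (median log2 fold change 0.87), and 18 were higher with TPM, among them the replicative helicase subunit Mcm2 (40, 23, 29, 18 and 23 against 7, 9 and 8 FPKM, limma adjusted p = 0.00397), the primase Prim1 and the replication factor Cdc45. Leaving out 1 library raised the limma adjusted p of Cdc45 to as much as 0.0544, past the threshold. Of 23 histone chaperones and assembly factors 10 were higher and none lower (median 0.50), and 19 were higher with TPM, led by Dnajc9, Chaf1b and Rbbp7. Of 11 replacement histones 5 were higher and none lower (median 0.43), namely H1fx, H2afy2, Cenpa, H2afv and H2afx, and 10 were higher with TPM (median 1.40). Cenpa, the centromeric H3, lost its call without any 1 library except cancer 4 (limma adjusted p = 0.0525 to 0.143). H1fx, a linker histone outside the clusters, was at 52, 32, 56, 17 and 33 FPKM in cancers 1 to 5 and at 2 in each control (log2 fold change 3.59 ± 0.36, limma adjusted p = 0.00108). H2afx, the only 1 of the 11 whose transcripts also hold the stem-loop, was at 21 to 36 FPKM in the cancers and 13 to 20 in the controls (limma adjusted p = 0.0431). All 11 had an annotated end with the hexamer. Of the 8 genes that govern histone gene transcription, Npat, Ccne1 and Ccne2 included, none passed the test in limma (median 0.39), with 3 higher and none lower at an unadjusted p under 0.05, while 6 were higher with TPM (median 1.23).

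In the 3′ processing list, 1 of 11 genes was higher and 1 lower (median -0.01), and with TPM 8 were higher and none lower (median 0.93, beside 0.81 over all genes). Slbp, which binds the stem-loops shown above, was at 55, 41, 56, 32 and 33 FPKM in cancers 1 to 5 and at 25, 23 and 21 in controls 1 to 3, without overlap. Its log2 fold change was 0.85 ± 0.22 (limma adjusted p = 0.0233), and without control 1, 2 or 3 the limma adjusted p was 0.0621, 0.0733 and 0.0819. The cap-binding subunit Ncbp1 was lower on FPKM (log2 fold change -0.60, limma adjusted p = 0.0160) but at 0.34 with TPM. The decay helicase Upf1, the only 1 of 5 decay genes to pass on FPKM, was lower there and at 0.39 with TPM. With TPM 2 of the 5 decay genes were higher and none lower (median 0.76). Ncbp1 lost its call without control 1 or 2 (limma adjusted p = 0.0640 and 0.0661), and Upf1 without control 1 or 3 (0.0551 and 0.0520). As a gauge of how much RNA without a poly(A) tail the libraries held, the ribosomal precursor Rn45s was at 689, 411, 260, 353 and 327 FPKM in cancers 1 to 5 against 1719, 651 and 2364 in controls 1 to 3, and the RNA component Rmrp at 19, 5, 3, 2 and 4 against 19, 6 and 20. Rn45s was the only 1 of 5 such RNAs tested that passed, and it did so as lower in the cancers (limma adjusted p = 0.0225), but not on the TPM scale and not without cancer 3 (0.0536), control 1 (0.0855) or control 3 (0.0829), and control 2 was below cancer 1. Rmrp overlapped between the groups, with cancer 1 at the level of controls 1 and 3 and control 2 near the other cancers. The part of RNA without a poly(A) tail in the histone values was not tested.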

How the data were processed

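RNA-Seq of 5 cancers and 3 control SCJ samples was analysed. Per the labels, the authors isolated polyadenylated RNA and made directional NEBNext libraries (the methods name TruSeq). They trimmed reads with cutadapt 1.8 and, per the methods and the submitters' processing notes, used TopHat2 2.0.13, cuffquant and Cuffnorm 2.2.1 with UCSC mm10 genes. The deposited values are FPKM rounded to whole numbers (100% of values), so they were treated as a score and not as counts. Rows matching the symbol rule were taken as members. limma 3.58.1 (R 4.3.3; lmFit, eBayes with trend) was run on log2(FPKM + 1) for 14357 genes with FPKM of at least 1 in 3 or more samples, with Benjamini-Hochberg adjustment over all of them. The fit was tested on simulated data. Exact two-sided permutation tests covered 56 splits. Sequences came from GENCODE M21. In that annotation 65 of 68 loci overlapped the gene of the same symbol, and the other 3 are rows that repeat a partner's coordinates.

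Named genes were all called members, the 10 tested members with the highest mean, all Hist1h1 genes, members with identical coordinates, up to 3 genes per context list, and Trp53 and Rb1; the other histone genes and H2afv, H2afx, H1f0, H3f3b, Pgc, Gif, Ms4a1 and Rmrp were named after their values were seen. Members and lists were chosen with earlier results of these data known. Of 136 list entries 131 were found. Alternatives were another pseudocount, 2 filters, 2 scalings, array weights, eBayes without its trend, leaving out each library and a replicate block. Replicate numbers did not pair the samples.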

Additional observations from a re-analysis of the deposited data

Results flagged for a closer look

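Among the 5 cancers, 65 values were examined for a single library far from the others on the log2 scale, by its gap to the nearest library divided by the range of the group. A ratio above 0.71 was flagged, which for separate, continuous values chance gives in about 1 of 20 groups, or 3.25 of 65, and 8 were found. These values came from whole numbers, and several sums contained genes also examined alone, so the 8 cannot be judged against 3.25. The ratio was 1.0 for Hist1h4d (cancer 1 at 2 FPKM, the others at 1), for Hist1h4h (cancer 4 at 2, the others at 1) and for Hist2h3c2 (cancer 5 at 0, the others at 1), where whole-number values leave only 2 levels. It was 0.756 for Hist2h3c1, with cancer 5 at 1 FPKM and the others at 3 or 4. Of the sums, H3 (0.792) and the Hist2 cluster (0.807) were low in cancer 5, at 1 and 3 FPKM against 5 to 7 and 10 to 13 in the other cancers. H4 (0.852) was high in cancer 1, at 16 FPKM. The B-cell gene Cd79a (0.741) was also high in cancer 1, at 68 FPKM.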

How the results depend on the processing

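Depth is unknown and values are whole numbers, so differences of 1 FPKM cannot be resolved. The alternatives changed the following values, and the cause was not tested. With TPM there were 7704 genes called in place of 4948, and 68 context genes in place of 37. On that scale 6 histone genes were higher in place of 1, and 0 lower in place of 4. The share of members called higher was then below that of all genes tested. Among the 6, Hist3h2ba, Hist2h2ac and Hist2h4 were tested only through the cancers. Histone genes without overlap were 5 higher and 1 lower in place of 1 and 3. The share of all genes without overlap was not computed with TPM, so these counts have no background. The log2 ratio of the summed members, -0.77, became 0.22 with TPM and -0.44 with quantile normalization. With a mean FPKM of at least 5, 0 histone genes were higher or without overlap in that direction, because Hist3h2ba was not tested, and 3 of the named ones were called in place of 5. A pseudocount of 0.1 gave 3 higher. A smaller pseudocount widens differences from 0, and the tested members at 0 in every control entered the fit only through the cancers, so this count is no added support. Array weights gave 8148 genes, 4 higher members and 64 context genes.

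Genes named in the text that changed direction were these. With TPM these were Hist1h1c (0.0042), Hist1h1e (0.0042), Ncbp1 (0.34), Upf1 (0.39), H1f0 (0.90), H3f3b (0.83) and Trp53 (0.86), and with quantile normalization Hist1h1d (-0.057), Hist1h4i (-0.14), Hist2h2be (-0.13) and Trp53 (0.12). Hist1h1d was also at -0.10 with array weights. Leaving out 1 library gave -0.10 to 0.17 for Hist1h1d, -0.035 to 0.37 for Hist1h4i and -0.29 to 0.027 for Trp53.

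Leaving out each library in turn gave 2490 to 5252 genes, with 2490, 2643 and 2815 without control 1, 2 and 3, and 16 to 45 context genes, with 24 without cancer 3 and 21, 16 and 18 without control 1, 2 and 3. It gave 1 to 3 histone genes higher, 0 to 4 lower, 1 to 5 named genes, 1 to 4 and 3 to 4 without overlap, and a log2 ratio of the sums of -0.87 to -0.69. Without cancer 5, 3 were higher and 4 without overlap; Hist2h2ac and Hist2h4, added there, were tested only through the cancers. Lower were 1 without cancer 3 and 2, 0 and 0 without control 1, 2 and 3.

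The replicate block (deviations of same-numbered samples correlated at -0.02, -0.19 and -0.10, so the numbers do not pair them) gave 1534 genes, 2 histone genes higher, 1 lower, 2 named genes and 14 context genes.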
